A study of Mus musculus with 2 samples.

Results

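The genes described here are 10 members of the TNF superfamily, out of 32285 genes counted in the single-cell data. They are the receptors Tnfrsf4, Tnfrsf9, Tnfrsf18, Tnfrsf1b and Cd27 and the ligands Cd40lg, Tnfsf8, Tnfsf11, Tnfsf14 and Tnfsf10. They were chosen by name, with earlier results of these data known, and all 10 were found in both matrices. Their level and the share of cells in which they were detected were compared between genotypes in 4 kinds of T cell.

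The cells were TCRβ+ T cells, pooled from the spleen, the cervical nodes and the inguinal nodes of mice aged 14 weeks, 1 mouse of each genotype. Both mice carried Foxp3Cre, a Cre recombinase driven by Foxp3, the gene of the lineage factor of regulatory T (Treg) cells. The first was Foxp3Cre WT, and the other, DKO-severe, was Foxp3Cre Tet2/3 flox/flox with advanced disease. Cre therefore acts in cells that express Foxp3, and a cell that later stops expressing it keeps the deletion. The authors write that Foxp3-Cre has been considered leaky, with low stochastic expression in blood cell development. Cells of other lineages may therefore also carry the deletion. Deleted and undeleted cells cannot be told apart in these counts. With 1 mouse per genotype there is no error between animals, no test was made, and every interval below covers counting error only.

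Receptors of this superfamily are membrane proteins of T cells and other leukocytes that recruit TRAF adaptors and activate NF-κB when bound by their trimeric ligands. Several of them are induced after T cell receptor signalling and are held at high levels by Treg cells. The ligands, carried by activated T cells and antigen-presenting cells, pass help, survival or death signals between cells, and CD40 ligand in particular licenses B cells to form germinal centers.

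Cells were gated by transcripts. A UMI stands for 1 captured molecule. Cd4 cells had Cd4 and any of Cd3d, Cd3e and Cd3g, while Cd8a and Cd8b1 were both at 0. They were split by the presence of a Foxp3 UMI. Cd8 cells had the reverse pattern, and innate-like cells had a Cd3 UMI, a UMI of Zbtb16 (PLZF, the factor of innate-like T cells) and no Foxp3. The Foxp3-positive gate held 63 WT and 334 DKO-severe cells, the Foxp3-negative Cd4 gate 1681 and 2408, the Cd8 gate 3083 and 1724, and the innate-like gate 105 and 225. The innate-like gate overlaps the others: 21 of its WT cells and 88 of its DKO-severe cells were also in the Foxp3-negative Cd4 gate.

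The WT matrix held 45294779 UMIs and the DKO-severe matrix 69692053, and retained cells had a median of 5609 and 8076.5 UMIs. The gap was widest in the Foxp3-positive gate, at medians of 5288 and 11607.5. The targeted genes were not lost from the counts: in the Foxp3-positive gate Tet2 was at 57.9 CPM in WT and 72.5 in DKO-severe, and Tet3 at 86.8 and 86.4. Whether the counted 3′ tags lie in the deleted parts was not determined, so these values check nothing about the deletion.

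The gates held transcripts of other cell types, unequally by genotype. The summed level of 6 granulocyte genes (S100a8, S100a9, Ltf, Ngp, Camp and Retnlg) ranged from 77.9 to 85.5 CPM over the 4 gates in WT and from 1413 to 5242 CPM in DKO-severe. The summed level of 6 monocyte or macrophage genes was 35.6 and 755 CPM in the Foxp3-positive gate, 75.4 and 502 in the Foxp3-negative gate, 79.1 and 124 in the Cd8 gate, and 1119 and 1542 in the innate-like gate. B cell genes stayed between 7.88 and 97.9 CPM. The summed level of 3 plasma cell genes ran the other way in the Foxp3-negative gate, at 335 and 42.9 CPM, and in the Cd8 gate, at 160.0 and 35.7 CPM. The innate-like gate thus carried Lyz2 at 927 and 1157 CPM beside Zbtb16 at 480.5 and 212, so its label holds only in part. Members are therefore also given without cells that held 2 or more of the B cell genes or 2 or more of the myeloid genes, and beyond that the part of these transcripts in the results was not tested.

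Levels are given as CPM, the UMIs of a gene per 1000000 UMIs summed over the cells of a gate. They are not divided by transcript length, so levels are compared between genotypes and gates and not between genes. A gene was counted as higher or lower when its DKO-severe to WT ratio passed 2-fold, a log2 ratio of 1, with 30 or more UMIs in both genotypes together.

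In the Foxp3-negative Cd4 gate, 8 of the 10 members were past 2-fold higher in DKO-severe cells, and none was past 2-fold lower. Of all 13251 genes with 30 or more UMIs in that gate, 18.1% were past 2-fold higher and 6.04% past 2-fold lower, 24.1% in either direction. In the Foxp3-positive gate 5 of 10 members were higher and none lower, against 10.1% and 6.32% of all genes (987 and 617 genes, or 792 and 763 when immunoglobulin, haemoglobin, mitochondrial and ribosomal genes were left out of the scaling). In the innate-like gate 4 of 10 were higher and none lower, against 8.98% and 2.27%. In the Cd8 gate 1 of 10 was higher and none lower, against 5.03% and 3.61%, or 8.64% in either direction. All 10 members had 30 or more UMIs in each gate. Since the members were chosen with earlier results of these data known, these counts are descriptions and no test against all genes. Their median log2 ratio was 1.63 in the Foxp3-negative gate, 1.02 in the Foxp3-positive gate, 0.85 in the innate-like gate and 0.40 in the Cd8 gate, where the median over all genes was 0.14, 0.09, 0.05 and -0.03.

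**Figure D1:**
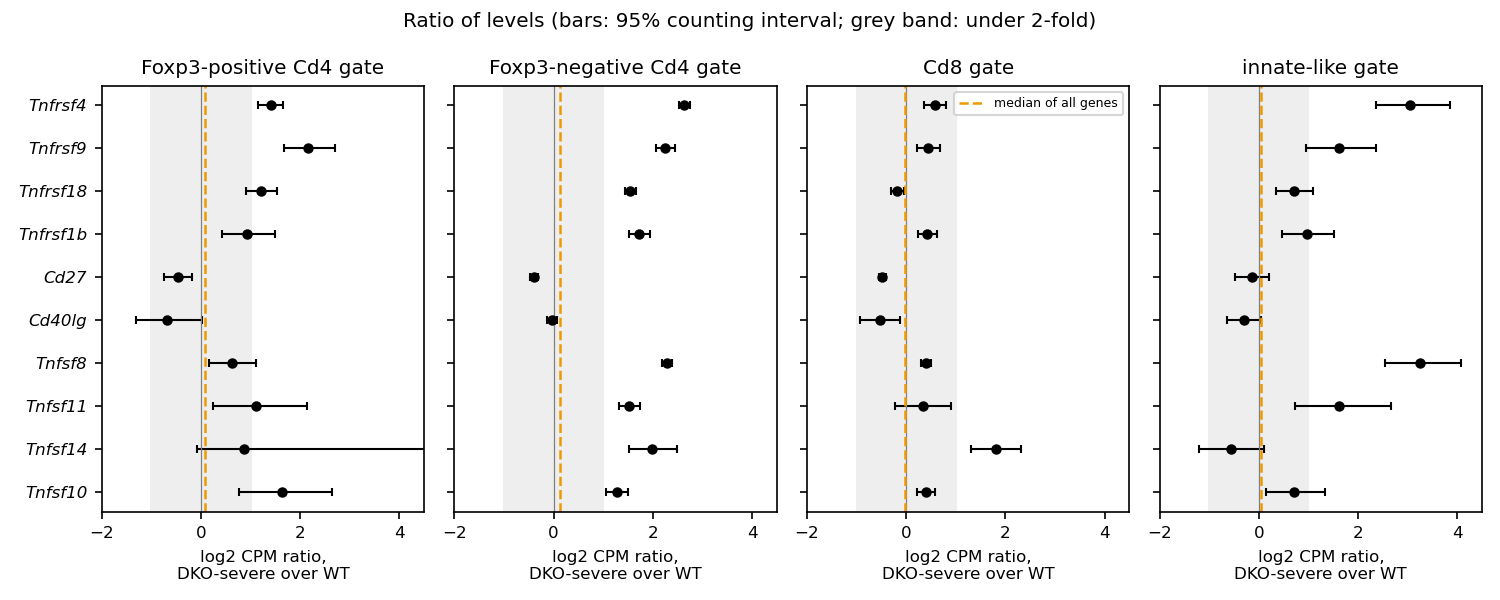
Log2 ratio of CPM, DKO-severe over WT (x axis), of the 10 genes (y axis) in the 4 gates; points are ratios, bars 95% counting intervals, the grey band ratios under 2-fold and the dashed line the median of all genes. In the Foxp3-negative gate 8 points lie right of the band, and in the Cd8 gate 1 does. The Tnfsf14 bar of the Foxp3-positive gate runs past the axis because WT had 1 UMI, and its point is a lower bound.

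Among the receptors, Tnfrsf4 encodes OX40, a costimulatory receptor of activated T cells and Treg cells. In the Foxp3-negative Cd4 gate it was at 69.9 CPM in WT (95% Poisson interval 64.8 to 75.3) and 436 CPM in DKO-severe (427 to 444), which gives a log2 ratio of 2.64 (2.53 to 2.75). In the Foxp3-positive gate it was at 298 and 789 CPM, and in the innate-like gate at 22.3 and 186 CPM, log2 ratios of 1.40 (1.16 to 1.66) and 3.06 (2.36 to 3.85). In the Cd8 gate it was at 15.3 and 23.0 CPM, a ratio of 0.58 that stayed under 2-fold. In WT Foxp3-positive cells 17.9% of the Tnfrsf4 UMIs came from 1 cell. Foxp3-positive cells of WT were thus above WT cells of every other gate, and DKO-severe Foxp3-negative cells were above WT Foxp3-positive cells, with intervals apart.

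Tnfrsf18 encodes GITR, a receptor long used to mark Treg cells, and its gene is the neighbour of Tnfrsf4. In the Foxp3-negative gate it was at 76.1 CPM in WT against 222 CPM in DKO-severe, which gives a log2 ratio of 1.54 (1.43 to 1.66). In the Foxp3-positive gate it was at 200.3 and 462 CPM, a ratio of 1.21 (0.90 to 1.53). It reached 97.2 and 159 CPM in the innate-like gate, under 2-fold at 0.71. In the Cd8 gate it was at 48.7 and 43.1 CPM, a ratio of -0.18 with an interval of -0.32 to -0.04. Its ratio was thus below 0 in Cd8 cells and above 0 in the 3 other gates.

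Both genes lie on the plus strand of chromosome 4 of mm10 (GENCODE M21), Tnfrsf4 at chr4:156013843-156016612 and Tnfrsf18 at chr4:156026164-156028895, with 9551 bases between them. Tnfrsf9, Tnfrsf1b and Tnfsf8 are on the same chromosome, so 5 of the 10 members and 9 of the 46 family genes are there. For the neighbouring pair, the parts outside GENCODE exons of the 250 bases before the RefSeq starts are shown, because both genes were higher in DKO-severe Foxp3-negative cells and because TET enzymes act on methylated cytosines of CpG pairs. Capitals mark CpG pairs, and both run 5′ to 3′ on the plus strand of GRCm38.p6 (RefSeq). The part of Tnfrsf4 ends at its RefSeq start, and that of Tnfrsf18 ends where its GENCODE gene begins, upstream of its RefSeq start.
Tnfrsf4, chr4:156013611-156013694: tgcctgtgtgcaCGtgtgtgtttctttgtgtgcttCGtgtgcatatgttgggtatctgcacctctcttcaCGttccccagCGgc
Tnfrsf18, chr4:156026072-156026163: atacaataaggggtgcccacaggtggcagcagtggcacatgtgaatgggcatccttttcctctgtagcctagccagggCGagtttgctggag

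The stretch of Tnfrsf4 holds 4 CpG pairs in 84 bases and that of Tnfrsf18 holds 1 in 92 bases. Over the full 250 bases before the start, the windows held 5 and 2 CpG pairs, where the median of 32851 RefSeq windows was 6. Methylation was not measured in these samples. Windows were given for 9 of the 10 members, with a pair of starts for Tnfrsf9. The AP-1 motif TGANTCA, searched on both strands, was in 2 of the 10 member windows (Tnfsf14 and 1 of those of Tnfrsf9) and in 6.75% of all windows. The NF-κB motif, also on both strands, was in 1 of 10, also of Tnfrsf9, and in 1.41% of all windows. The NFAT core TTTCC, which also ends the NF-κB motif searched, was on either strand in 9 of 10 and in 55.6% of all windows.

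Tnfrsf9 encodes CD137, which appears on T cells after activation. In the Foxp3-negative gate it was at 23.6 CPM in WT against 113 CPM in DKO-severe, which gives a log2 ratio of 2.25 (2.06 to 2.45). In the Foxp3-positive gate it was at 75.7 CPM (52.4 to 106) and 338 CPM (322 to 354), a ratio of 2.16 (1.67 to 2.69). Among the members with more than 1 WT UMI it had the highest ratio there, and 1.65% of all genes in that gate had a higher one. The innate-like gate had 26.3 and 80.7 CPM, a ratio of 1.62 (0.96 to 2.36), and the Cd8 gate 13.5 and 18.3 CPM, a ratio of 0.45.

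Tnfrsf1b encodes TNFR2, a TNF receptor found mainly on leukocytes. It was at 21.7 and 71.6 CPM in the Foxp3-negative gate, for a log2 ratio of 1.72 (1.52 to 1.94). In the other gates it stayed under 2-fold, at 71.2 and 136 CPM in the Foxp3-positive gate (0.93), 47.3 and 93.03 CPM in the innate-like gate (0.98) and 19.2 and 25.8 CPM in the Cd8 gate (0.43). All 4 ratios had intervals above 0.

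Cd27, a receptor already present on resting T cells, did not share this pattern. It was at 202 CPM in WT against 153 CPM in DKO-severe in the Foxp3-negative gate, a log2 ratio of -0.40 (-0.48 to -0.32). In the Cd8 gate it was at 205 and 147 CPM, a ratio of -0.48 (-0.56 to -0.41), and in the Foxp3-positive gate at 254 and 184 CPM, a ratio of -0.47 (-0.75 to -0.17). The innate-like gate had 123 and 112 CPM, with an interval of -0.48 to 0.21. None of the 4 differences reached 2-fold.

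**Figure D2:**
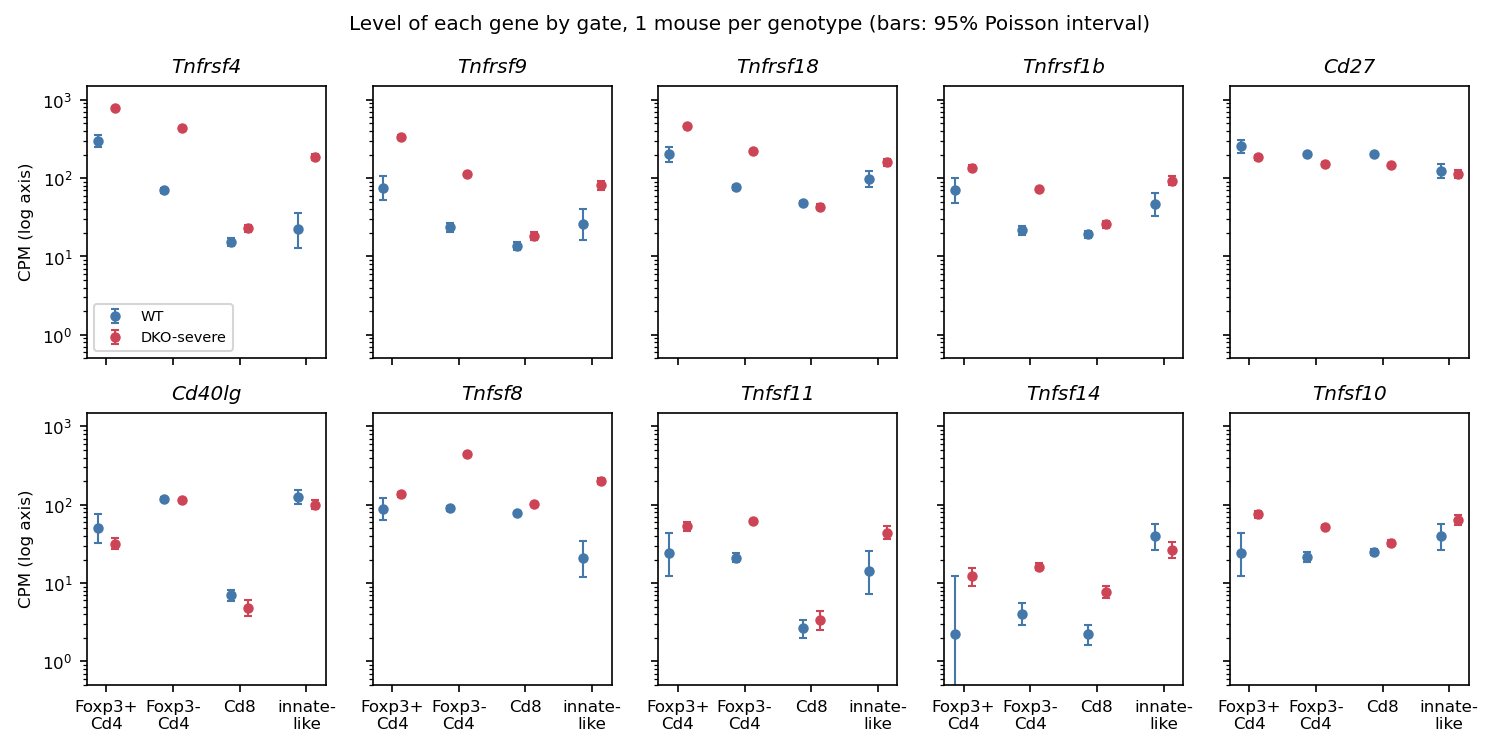
CPM (y axis, log scale) of each of the 10 genes in the 4 gates (x axis) in WT (blue) and DKO-severe (red); bars are 95% Poisson intervals, with 1 mouse per genotype. Tnfrsf4 in the Foxp3-negative gate goes from 69.9 to 436 CPM, while Cd27 and Cd40lg stay close between genotypes in that gate.

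Among the ligands, Tnfsf8 encodes CD30 ligand, and in the Foxp3-negative gate its difference was the largest of the 5. It was at 90.2 CPM in WT (84.3 to 96.3) and 439 CPM in DKO-severe (430.4 to 447), which gives a log2 ratio of 2.28 (2.18 to 2.38). In the innate-like gate 16 WT UMIs gave 21.0 CPM and 523 DKO-severe UMIs gave 201 CPM, a ratio of 3.26 (2.55 to 4.08), and 10.5% of the DKO-severe UMIs came from 1 cell. Within the Foxp3-positive gate it was at 89.0 and 137 CPM, a ratio of 0.62 (0.16 to 1.12) that was -0.10 with counts thinned to equal depth, and in the Cd8 gate at 77.5 and 102 CPM, a ratio of 0.39 (0.29 to 0.49). Tnfsf8 thus had its highest DKO-severe level in the Foxp3-negative gate, where Tnfrsf4, Tnfrsf9 and Tnfrsf18 had theirs in the Foxp3-positive gate.

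Tnfsf8 lies on the minus strand at chr4:63831308-63861347. The part of its upstream window outside GENCODE exons is shown for the same reason as above, 5′ to 3′ on the minus strand of GRCm38.p6 (RefSeq) with CpG pairs in capitals. It holds 5 CpG pairs in 187 bases, and the full window holds 8, more than 57.0% of all windows.
Tnfsf8, chr4:63861348-63861534: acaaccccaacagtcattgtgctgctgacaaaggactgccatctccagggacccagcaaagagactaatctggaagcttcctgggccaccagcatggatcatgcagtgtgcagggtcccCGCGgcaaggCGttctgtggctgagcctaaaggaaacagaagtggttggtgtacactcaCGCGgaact

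Cd40lg encodes CD40 ligand, the main helper signal of CD4 T cells to B cells, and was the member whose level differed least between genotypes in the Foxp3-negative gate. It was at 118 CPM in WT (111 to 125) and 115 CPM in DKO-severe (111 to 120), which gives a log2 ratio of -0.03 (-0.13 to 0.07). Among Foxp3-positive cells it was at 51.2 and 31.9 CPM, a ratio of -0.68 (-1.32 to 0.02) that was 0.22 where gates needed 2 UMIs. With counts thinned to equal depth the ratio was -1.95. Only 3 WT and 2 DKO-severe cells then held Cd40lg, too few UMIs for it to be counted as lower. In the innate-like gate it was at 125 and 101 CPM, with an interval of -0.65 to 0.05. Among Cd8 cells it was at 6.97 and 4.86 CPM. The interval in the Foxp3-negative gate holds no difference of 2-fold, and the ratio was 0.05 with every cell given equal weight.

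Tnfsf11 encodes RANK ligand. It was at 21.2 and 61.2 CPM in the Foxp3-negative gate, for a log2 ratio of 1.53 (1.32 to 1.75), and at 14.4 and 44.2 CPM in the innate-like gate, a ratio of 1.61 (0.72 to 2.66). Within the Foxp3-positive gate it was at 24.5 and 53.0 CPM, a ratio of 1.12 (0.25 to 2.14) that rests on 11 WT UMIs and was under 2-fold, at 0.71, with counts thinned to equal depth. Within the Cd8 gate its level was low in both genotypes, 2.64 and 3.34 CPM.

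Tnfsf10 encodes TRAIL, a death ligand. It was at 21.5 and 52.1 CPM in the Foxp3-negative gate, for a log2 ratio of 1.28 (1.06 to 1.49), and at 24.5 and 75.6 CPM in the Foxp3-positive gate, a ratio of 1.63 (0.77 to 2.64), again with 11 WT UMIs. The innate-like gate had 39.4 and 64.6 CPM and the Cd8 gate 24.7 and 32.5 CPM, both under 2-fold.

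Tnfsf14 encodes LIGHT, a ligand of HVEM and of the lymphotoxin β receptor. It was the 1 member past 2-fold in the Cd8 gate, at 2.21 CPM in WT (47 UMIs) and 7.71 CPM in DKO-severe (127 UMIs), which gives a log2 ratio of 1.80 (1.31 to 2.32) that was 0.82 with 5 CPM added to both levels. In the Foxp3-negative gate it was at 4.08 and 16.1 CPM, a ratio of 1.99 (1.51 to 2.49). In the innate-like gate its WT level was higher than in the Cd4 and Cd8 gates, 39.4 CPM, and the DKO-severe level was 26.5 CPM, with an interval of the ratio of -1.21 to 0.10. Among Foxp3-positive cells WT had 1 UMI and DKO-severe 60, or 12.2 CPM, with an interval of the ratio of -0.08 to 7.78.

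Detection gave a view that does not depend on a few cells with many UMIs. Each cell was thinned at random to 3800 UMIs, which left out 698 WT (10.5%) and 477 DKO-severe cells (7.5%). The gates were then drawn again on the thinned counts. A cell that lost its Foxp3, Cd4 or Cd8a UMIs in thinning could thus change gate. The Foxp3-positive gate went from 63 to 23 WT cells and from 334 to 89 DKO-severe cells. How many of the lost cells entered the Foxp3-negative gate was not counted. A share was counted as different when the Clopper-Pearson intervals of the genotypes were apart and 30 or more cells had the transcript. Among Foxp3-negative cells, 1195 WT and 1857 DKO-severe cells remained, and 8 members were found in a larger share of DKO-severe cells and 1 in a smaller share, against 24.4% and 11.0% of all genes. Tnfrsf4 was in 16.0% of cells in WT (14.0 to 18.2) and 56.0% in DKO-severe (53.7 to 58.3). Tnfsf8 was in 21.2% (18.9 to 23.6) and 56.2% (53.9 to 58.4). Without thinning these shares were 19.7% and 67.5% for Tnfrsf4 and 28.6% and 69.5% for Tnfsf8.

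For some members, positive cells also held more molecules. Per positive Foxp3-negative cell at equal depth, Tnfrsf4 had 1.64 UMIs in WT but 2.81 in DKO-severe, Tnfsf8 1.64 and 3.12, and Tnfrsf18 1.25 and 1.94. For Cd40lg both the share, 32.1% and 31.9%, and the UMIs per positive cell, 1.42 and 1.43, were close. UMIs per positive cell were also close for Tnfsf11, at 1.3 and 1.295, and for Tnfsf14, at 1.176 and 1.17. Tnfrsf18 was in 22.9% and 46.6% of these cells, Tnfrsf9 in 5.36% and 20.5%, Tnfrsf1b in 6.19% and 19.0%, Tnfsf11 in 5.02% and 18.4%, Tnfsf10 in 6.28% and 16.1%, and Tnfsf14 in 1.42% and 5.71%. Cd27 was in the smaller share of DKO-severe cells, 45.2% (43.0 to 47.5) against 52.1% (49.2 to 54.9).

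**Figure D3:**
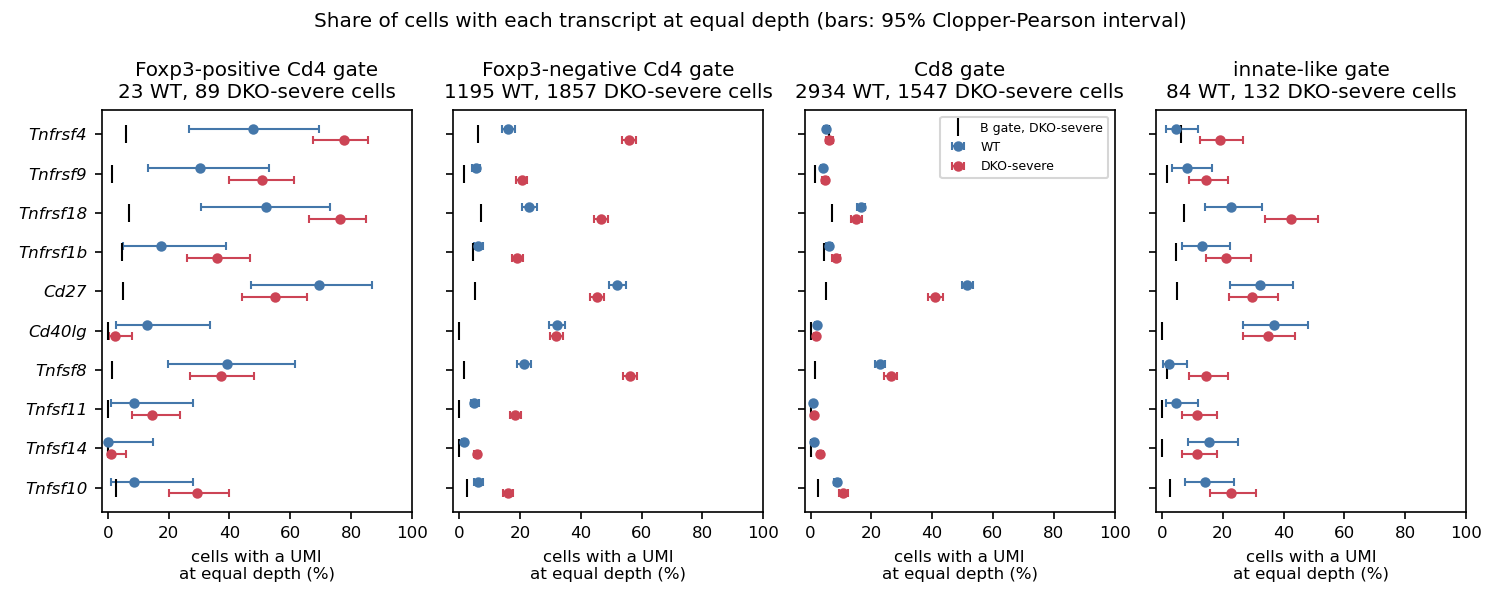
Share of cells with 1 or more UMI at equal depth (x axis, percent) for each gene (y axis) in the 4 gates, WT in blue and DKO-severe in red, with 95% Clopper-Pearson intervals; the black tick is the share in B cells of DKO-severe. Within the Foxp3-negative gate Tnfrsf4 goes from 16.0% to 56.0% and Cd40lg stays at 32.1% and 31.9%.

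B cells, gated by 3 or more B cell markers and no Cd3 UMI, served as a measure of free RNA. This holds only for genes that B cells do not express, which was not tested for the members. At equal depth 197 DKO-severe B cells remained, with a median of 5080 UMIs per cell before thinning, and only 9 WT cells. Tnfrsf4 was found in 6.09% of the DKO-severe B cells (3.19 to 10.4), Tnfrsf18 in 7.11%, Cd27 in 5.08%, Tnfrsf1b in 4.57%, Tnfsf10 in 2.54%, and Tnfrsf9 and Tnfsf8 in 1.52% each. Cd40lg, Tnfsf11 and Tnfsf14 were in 0 of 197, which by a limit of 3 counts allows a share of up to 1.52%. The Tnfrsf4 share of Cd8 cells, 5.18% in WT and 6.08% in DKO-severe, was no higher than its share of DKO-severe B cells. The 9 WT B cells were too few to give a level of their own. The shares alone are therefore not read as expression. At equal depth, however, single Cd8 cells held up to 10 Tnfrsf4 UMIs in WT and 19 in DKO-severe, and no DKO-severe B cell held more than 1. This Cd8 gate was redrawn on thinned counts, so it may include cells with a Cd4 UMI at full depth. Whether some Cd8 cells express the gene was not tested. In DKO-severe Cd8 cells Tnfrsf4 was found with Tnfrsf18 in 33 cells, 2.35 times the number that independent detection would give, and in WT in 25, 1.00 times.

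Among Cd8 cells, with 2934 WT and 1547 DKO-severe cells, 2 members were in a larger share of DKO-severe cells and 1 in a smaller share, against 9.27% and 8.3% of all genes. Tnfsf14 was in 1.02% (0.69 to 1.46) and 3.10% (2.30 to 4.09), Tnfrsf1b in 5.999% and 8.339%, and Cd27 in 51.6% and 41.0%. Another random draw counted 4 larger and 1 smaller. In the innate-like gate, with 84 and 132 cells, 1 member was in a larger share, Tnfrsf18 in 22.6% (14.2 to 33.1) and 42.4% (33.9 to 51.3), against 1.23% of all genes higher and 0.506% lower. No member passed there in another draw or at 2500 UMIs. Tnfrsf4, in 4.76% and 18.9%, and Tnfsf8, in 2.38% and 14.4%, also had intervals apart there but under 30 positive cells.

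Within the Foxp3-positive gate only 23 WT and 89 DKO-severe cells remained at equal depth, and no member had intervals apart, where 2.43% of all genes were higher and 1.14% lower. Tnfrsf4 was in 47.8% (26.8 to 69.4) and 77.5% (67.5 to 85.7), Tnfrsf9 in 30.4% and 50.6%, and Tnfrsf18 in 52.2% and 76.4%. Cd40lg was in 3 of 23 WT cells and 2 of 89 DKO-severe cells, 13.04% and 2.247%.

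The Foxp3-negative gate was then split at equal depth into states, by Il21, by Pdcd1 with Cxcr5 (markers of follicular helper cells), and by Cntn5 in what remained. The makeup differed: Il21-positive cells made up 0.92% in WT and 21.0% in DKO-severe, cells with Pdcd1 and Cxcr5 0.50% and 3.23%, remaining cells with Cntn5 3.52% and 17.7%, and remaining cells without it 95.1% and 58.1%. Levels within a state are given at full depth, for states of 20 or more cells. The cells were picked on thinned counts, so Foxp3-negative states may hold cells with a Foxp3 UMI at full depth. How many do was not counted.

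In the remaining cells without Cntn5 (1136 WT, 1079 DKO-severe) 8 of 10 members were past 2-fold higher and none lower, against 15.5% and 4.43% of all genes. Tnfrsf4 was at 76.6 and 458 CPM, for a log2 ratio of 2.58 (2.45 to 2.71), and Tnfrsf9 at 23.1 and 149 CPM, a ratio of 2.69 (2.45 to 2.93). Tnfrsf1b had a ratio of 1.98, Tnfrsf18 1.78, Tnfsf14 1.56, Tnfsf8 1.54, Tnfsf10 1.51 and Tnfsf11 1.12. At equal depth Tnfrsf4 was in 14.9% (12.9 to 17.1) and 48.2% (45.2 to 51.2) of these cells and Tnfsf8 in 21.0% and 41.6%. Cd40lg was at 115 and 84.0 CPM, a ratio of -0.45 (-0.59 to -0.31).

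In the remaining cells with Cntn5 (42 WT, 328 DKO-severe) 7 members were past 2-fold higher and none lower, against 13.2% and 6.42% of all genes. Tnfsf8 was at 63.2 and 617 CPM, a ratio of 3.29 (2.56 to 4.13), and in 11.9% (3.98 to 25.6) and 74.4% (69.3 to 79.0) of cells. Tnfrsf4 was at 118 and 442 CPM, a ratio of 1.90 (1.37 to 2.50). The 42 WT cells held 3 UMIs of Tnfrsf9 and 3 of Tnfsf11, so that the intervals of their ratios were wide, 1.46 to 5.30 and 0.89 to 4.74.

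The other states had under 20 WT cells and are described in DKO-severe only. Tnfsf8 was highest in Il21-positive cells (390 cells), at 812 CPM and in 80.3% of cells (76.0 to 84.1), then in remaining cells with Cntn5, at 617 CPM, and in cells with Pdcd1 and Cxcr5 (60 cells), at 518 CPM and 61.7%. It was at 249 CPM in remaining cells without Cntn5. Cd40lg was also highest in Il21-positive cells, at 171 CPM and in 44.9% of them. Tnfsf11 was at 87.4 CPM in Il21-positive cells and 97.5 CPM in cells with Pdcd1 and Cxcr5.

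Tnfrsf4 ranged between 442 and 504 CPM in the 4 states of DKO-severe, and Tnfrsf9 was at 69.9 CPM in Il21-positive cells and 149 CPM in remaining cells without Cntn5. Foxp3-positive cells of DKO-severe gave the other side of the order. In those without Il2ra (59 cells) and with it (30 cells), Tnfrsf4 was at 998 and 836 CPM, Tnfrsf9 at 361 and 420 CPM and Tnfrsf18 at 589 and 754 CPM. Tnfsf8 was at 87.5 and 198 CPM in them and Cd40lg at 28.1 and 28.8 CPM.

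**Figure D4:**
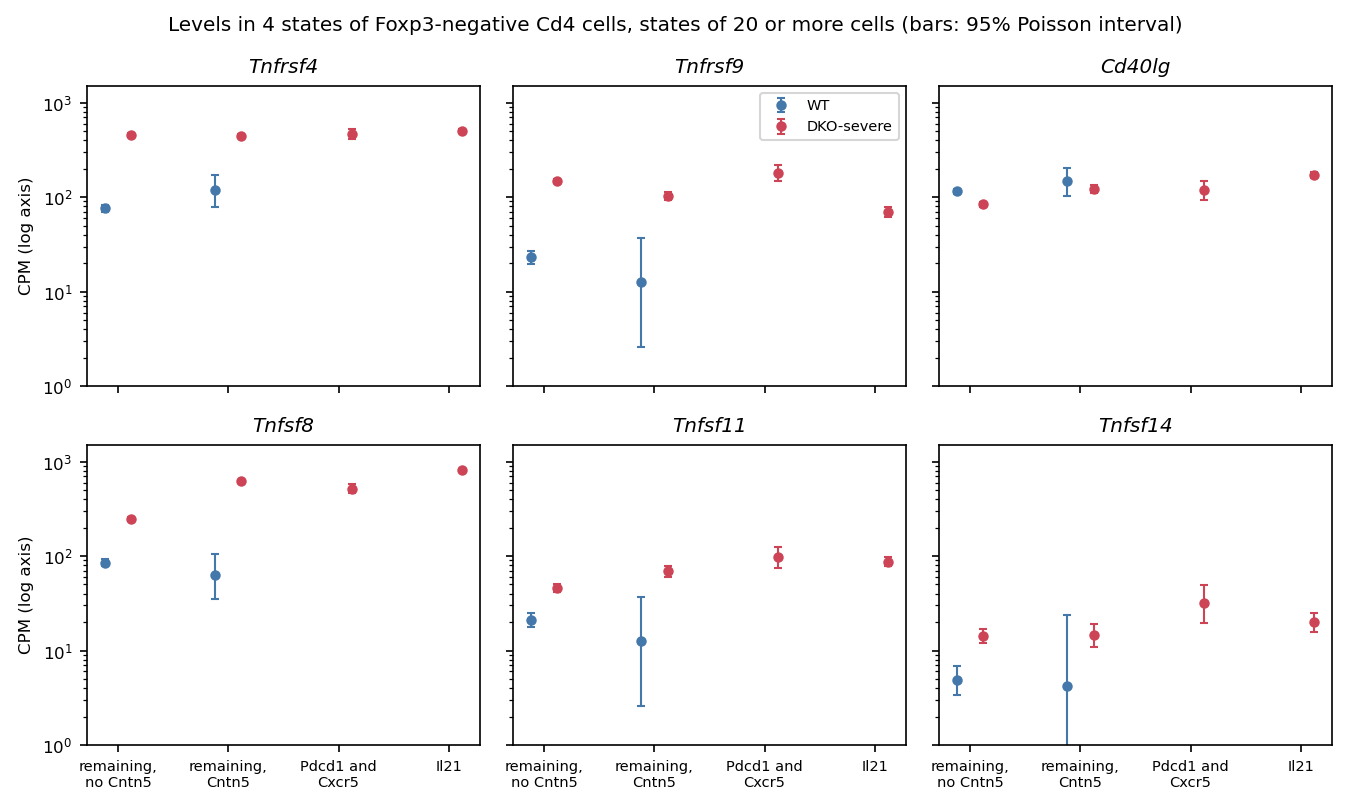
CPM (y axis, log scale) of 6 of the genes in 4 states of Foxp3-negative Cd4 cells (x axis), WT in blue and DKO-severe in red, with 95% Poisson intervals; WT points are missing where a state had under 20 cells. Tnfsf8 reaches 812 CPM in Il21-positive cells, and Tnfrsf4 sits at 76.6 and 458 CPM in remaining cells without Cntn5.

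Other Treg genes were also counted in the Foxp3-negative gate. The summed level of 7 Treg genes, Foxp3 included at 0, was 592 CPM in WT against 1506 CPM in DKO-severe in that gate, against 3893 and 3544 CPM in the Foxp3-positive gate. Without cells that had a UMI of Il2ra, Ikzf2, Ikzf4 or Lrrc32, a choice made after seeing the data, 1174 WT and 676 DKO-severe cells were left and 7 members stayed past 2-fold higher and none lower, against 13.8% of all genes in either direction. Tnfrsf4 was then at a log2 ratio of 2.50, Tnfsf11 at 1.99, Tnfsf8 at 1.93, Tnfrsf18 at 1.23 and Tnfrsf9 at 1.21, while Tnfsf10 was under 2-fold at 0.92. Tnfrsf9 thus went from 2.25 to 1.21. The cells were left out on full-depth counts, where this gate had medians of 5256 UMIs in WT and 7979.5 in DKO-severe. More DKO-severe cells were left out, from 2408 at the start, than WT cells, from 1681. The part of depth in these ratios was not tested.

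Without cells that held B cell or myeloid markers, 8 members stayed past 2-fold in the Foxp3-negative gate and 5, with Tnfrsf1b at 1.13, were past it in the innate-like gate, and the Cd8 count stayed at 1. Of all genes 21.0%, 7.63% and 7.40% were then past 2-fold in either direction in these 3 gates. Tnfrsf4 was then at 2.69 in Foxp3-negative cells and 2.77 in innate-like cells, and Tnfsf8 at 2.37 and 3.13. Tnfrsf9 in innate-like cells went from 1.62 to 1.03. Among Foxp3-positive cells 5 were higher and 1, Cd40lg at -1.25, was lower, against 16.2% of all genes in either direction. In the innate-like cells that were outside the Cd4 and Cd8 gates (64 WT, 97 DKO-severe at equal depth), Tnfrsf4 was at 2.13, Tnfsf8 at 2.01, Tnfsf11 at 1.41 and Tnfrsf1b at 1.33, and Tnfrsf9 was at 0.34 (-0.58 to 1.35), where 6.06% of all genes were past 2-fold higher.

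Cd8 cells were split by granzymes (Gzma, Gzmb or Gzmk), again with cells picked on thinned counts and levels at full depth. A cell with a Cd4 UMI at full depth could thus enter these states. In granzyme-positive cells (124 WT, 384 DKO-severe) 4 members were past 2-fold higher and none lower, against 7.07% and 2.95% of all genes. These were Tnfrsf9 at 10.2 and 34.9 CPM (1.77, 0.79 to 2.94), Tnfsf10 at 20.5 and 52.5 CPM (1.36, 0.65 to 2.15), Tnfrsf1b at 21.6 and 44.2 CPM (1.03, 0.33 to 1.81) and Tnfsf14, which had 3 WT UMIs and 42 DKO-severe UMIs (interval 0.39 to 4.37). Cd27 was at 198 and 123 CPM there, a ratio of -0.69 (-0.96 to -0.42). Tnfsf8 was at 74.0 and 58.5 CPM, and its transcripts were in 23.4% of the granzyme-positive cells in WT and 11.2% in DKO-severe, with intervals of 16.3 to 31.8 and 8.22 to 14.8.

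In granzyme-negative Cd8 cells (2810 WT, 1163 DKO-severe) 2 members were past 2-fold higher and none lower, against 3.51% and 3.60% of all genes. They were Tnfrsf4, at 15.6 and 31.8 CPM (1.03, 0.81 to 1.25), whose shares of 5.12% and 5.68% had intervals that overlapped and were no higher than in B cells, and Tnfsf14, at 2.21 and 5.82 CPM (1.40, 0.84 to 1.97). Tnfsf8 differed from its pattern in granzyme-positive cells, at 76.6 and 139 CPM, a ratio of 0.86 (0.76 to 0.96), and was found in 22.7% (21.2 to 24.3) and 31.3% (28.6 to 34.0) of cells. Tnfrsf9 was at 13.5 and 15.1 CPM, a ratio of 0.16 (-0.12 to 0.43). The DKO-severe cells of this state held 399 Tnfrsf4 and 1743 Tnfsf8 UMIs. The whole Cd8 gate at full depth, with 1724 cells, held 379 and 1673. This state thus includes cells outside that gate. In that gate the ratios of Tnfrsf4 and Tnfsf8 were 0.585 and 0.391.

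The partners of these genes were taken from lists of 23 further receptors, 13 further ligands and 12 signalling genes. Among Foxp3-negative cells 16 of the receptors had 30 or more UMIs, 4 were higher and none lower, and 10 of the ligands did, with 5 higher and 1 lower, against the 18.1% and 6.04% of all genes given above. Tnfrsf8, which encodes CD30, the receptor of the Tnfsf8 product, was at 1.94 CPM in WT (19 UMIs) and 11.6 CPM in DKO-severe (269 UMIs), which gives a log2 ratio of 2.58 (1.91 to 3.33). Within the Foxp3-positive gate it had 2 and 238 UMIs, 4.45 and 48.4 CPM, with an interval of the ratio of 1.57 to 6.50. The 2 WT UMIs were set to 3, so the ratio there is a lower bound. It was 0.27 with counts thinned to equal depth and 0.71 where gates needed 2 UMIs. With so few WT UMIs, these values cannot decide whether the difference was under 2-fold. CD30 was thus at its highest level in DKO-severe Foxp3-positive cells, while its ligand Tnfsf8 was highest in the Foxp3-negative gate.

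The ligands of the member receptors were followed in the same gate. Tnfsf9, the ligand of CD137, was at 1.33 and 13.5 CPM in the Foxp3-negative gate (13 and 313 UMIs), a ratio of 3.35 (2.55 to 4.27). Tnfsf4, the ligand of OX40, was at 1.63 and 4.99 CPM, a ratio of 1.61 (0.85 to 2.47). Cd70, the ligand of CD27, had 2 and 47 UMIs, of which 29.8% came from 1 DKO-severe cell. Tnfsf18, the ligand of GITR, had 4 and 10 UMIs. Lta, which encodes lymphotoxin α, a ligand of TNFR2, was lower in DKO-severe, at 17.1 and 8.09 CPM, a ratio of -1.08 (-1.39 to -0.77), while Tnf was at 26.5 and 29.0 CPM. The Lta ratio was under 2-fold in 4 settings, at -0.87 with every cell given equal weight, -0.82 at equal depth, -0.76 with 5 CPM added to both levels and -0.66 without cells that had UMIs of other Treg genes.

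Other family genes past 2-fold in that gate had few UMIs. Tnfrsf14, which encodes HVEM, was at 2.24 and 4.99 CPM (1.15, 0.49 to 1.88). Ltbr, Tnfrsf21, Tnfsf12 and Tnfsf13 had 2, 11, 3 and 4 WT UMIs and 36, 55, 41 and 64 DKO-severe UMIs. Without cells that held B cell or myeloid markers, Tnfsf13 was at a ratio of 0.06 and Tnfrsf21 at -1.36. None of the 12 signalling genes was past 2-fold in that gate.

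Among Foxp3-positive cells, 9 of the further receptors, 5 of the further ligands and all 12 signalling genes had 30 or more UMIs. Beside Tnfrsf8, past 2-fold were Tnf, at 80.1 and 20.7 CPM (-1.95, -2.51 to -1.36), Lta, at 35.6 and 7.72 CPM (-2.21, -3.08 to -1.26), and the adaptor gene Traf5, at 80.1 and 29.3 CPM (-1.45, -1.99 to -0.88), all lower in DKO-severe. In WT 33.3% of the Tnf UMIs came from 1 cell, and the Tnf ratio was -1.36 without cells that held B cell or myeloid markers. With counts thinned to equal depth Traf5 was under 2-fold, at -0.87, and Tnf at -1.10. Where gates needed 2 UMIs, Tnf was at -3.71, Lta at -4.01 and Traf5 at -2.01. Within the Cd8 gate 14 of the receptors and 6 of the ligands had 30 or more UMIs. Fasl, the death ligand of cytotoxic cells, was at 3.29 and 24.7 CPM (2.90, 2.54 to 3.29) and Lta at 6.64 and 2.67 CPM (-1.31). Tnfrsf8, Tnfrsf21, Tnfsf9 and Tnfsf13b were also higher there, each at or under 2.92 CPM in both genotypes. In the innate-like gate, where 8 receptors and 5 ligands passed, Tnfrsf8 had 3 and 27 UMIs, with a ratio of 1.40 (-0.30 to 3.76) that was 0.18 without cells that held B cell or myeloid markers, and Tnfsf9 had 1 and 32, and none of the further genes was lower.

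Members were also followed over 14 points, the states of 20 or more cells in each genotype, on log2(CPM + 1). The points share 2 mice and 1 library, and the correlations are descriptions. Pearson's r was 0.94 between Tnfrsf4 and Tnfrsf18, 0.94 between Tnfrsf9 and Tnfrsf18 and 0.89 between Tnfrsf4 and Tnfrsf9. Tnfsf11 was close to Tnfrsf4 (0.93), and Tnfsf10 to Tnfrsf1b (0.91). Tnfsf8 was less like these receptors, with r between 0.43 and 0.68 with Tnfrsf1b, Tnfrsf18, Tnfrsf9 and Tnfrsf4. Cd27 had r between -0.61 and 0.24 with every other member.

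The genes of most similar pattern, among 6392 genes at a mean of 20 CPM or more, were Cd81 (0.98) and Ifi27l2a (0.98) for Tnfrsf4, Mxd4 (0.96) and Il1r2 (0.96) for Tnfrsf9, and Cd53 (0.97) and Mxd4 (0.96) for Tnfrsf18. For Tnfrsf1b they were Tmem128 and Vps54, and for Cd27 Il21r and Abcg1, at 0.81 and 0.80. For Cd40lg they were Gypc and Zfp362, and for Tnfsf8 Gpm6b (0.96) and Pou2af1 (0.95). For Tnfsf11 they were Nfkb1 and Lcp2, for Tnfsf14 Ndufa4 and Unc119b, and for Tnfsf10 Rrbp1 and Cmip.

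Within single cells the members were counted together at equal depth. Within the Foxp3-negative gate 2 or more of the 5 receptors were found in 23.9% of cells in WT (21.5 to 26.5) and 58.6% in DKO-severe (56.4 to 60.9), and 2 or more of the 5 ligands in 13.1% (11.2 to 15.1) and 38.1% (35.9 to 40.3). Among Cd8 cells the shares were 15.9% and 13.4% for receptors and 3.24% and 4.65% for ligands. Tnfrsf4 and Tnfsf8 were found together in 61 of 1195 WT cells and 636 of 1857 DKO-severe cells of the Foxp3-negative gate, 1.51 and 1.09 times the number that independent detection would give. For Tnfrsf9 with Cd40lg the DKO-severe number was 86 cells, 0.71 times that number, and for Tnfrsf9 with Tnfrsf4 it was 303 cells, 1.42 times.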

How the data were processed

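Single TCRβ+ cells of 1 Foxp3Cre WT and 1 DKO-severe mouse shared 1 mRNA library and 1 hashtag library (Hashtag 1 for WT, Hashtag 2 for DKO; 10000 cells loaded). The authors deposited raw UMI counts in 1 matrix per genotype, made with Cell Ranger 7.1.0 and mm10 per the file headers and the submitters' processing notes, which also name Seurat. Genotype was taken from the hashtag labels: median counts were 1973 for Hashtag 1 against 110 for Hashtag 2 in the WT matrix, where 3 barcodes with the reverse order were left out, and 36 against 4726 in the DKO-severe matrix. The matrices shared 0 barcodes. Whether intronic reads were counted is not given in the sources used here. Tnfrsf9, Tnfrsf18 and Cd27 overlap other annotated genes, so their counts may hold reads of those.

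Cells were required to have 500 genes or more, and mitochondrial UMIs at or under 10%. Scrublet (scanpy 1.11.5) marked 0 WT and 1 DKO-severe barcodes by its own threshold and did not work, so the highest 6% of scores were removed instead (383 and 407 cells), leaving 6621 and 6358 cells. Counts were summed per gate and genotype; sums under 3 UMIs were set to 3, no ratio was taken where both were at or under 3 or where the bound pointed the other way, and ratio intervals were exact, conditional on the gene's total. Intervals were at 95% confidence, and a count of 0 was taken to allow 3 counts. The self-test on simulated counts recovered 100.0% of 8-fold changes among genes with 30 or more UMIs in all 4 gates, and called from 0.354% (Cd8) to 3.40% (Foxp3-positive) of unchanged genes. It simulated Poisson counts and no smaller changes, so recovery near 2-fold was not tested. UMIs concentrated in a few cells were not simulated either. Clusters were not computed. No p-value was made, since cells are not replicates. Family genes were named where past 2-fold with 30 or more UMIs, with partners of members chosen after their values were seen, and the 2 most similar genes of each member were named. A further split of the states that had been planned is not reported here. The members, lists and gates were chosen with earlier results of these data known. Alternatives covered cell filters, doublets, gates, scaling, pseudocount, thinning depth and seed. Analyses used Python 3.11.15.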

Additional observations from a re-analysis of the deposited data

Results flagged for a closer look

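Tnfrsf18 went in opposite directions between gates: its log2 ratio was -0.18 in Cd8 cells, with an interval below 0, and above 0, with intervals above 0, in Foxp3-positive Cd4, Foxp3-negative Cd4 and innate-like cells. Each gate holds 1 mouse per genotype, and the difference between gates was not tested. Under 12 other settings the Cd8 ratio stayed between -0.28 and -0.02.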

How the results depend on the processing

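No paired analysis was possible because each genotype was 1 mouse, with no replicate to leave out. Of the members' log2 ratios recomputed under the alternatives, 110 of 118 in the Foxp3-positive gate, 109 of 130 in the Foxp3-negative gate, 110 of 120 in the Cd8 gate and 118 of 120 in the innate-like gate lay within the counting interval of the reported value. The cause of the changes below was not tested.

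With counts thinned to equal depth, the number of all genes past 2-fold went from 1604 to 502 in the Foxp3-positive gate, from 3199 to 2117 in the Foxp3-negative gate and from 1011 to 291 in the innate-like gate. With 5 CPM added to both levels it was 1244 in the Foxp3-negative gate and 203, from 1091, in the Cd8 gate, where the members past 2-fold went from 1 to 0. With a minimum of 4 UMIs per gene it was 2261 in the Cd8 gate and 1706 in the innate-like gate, and without cells that held B cell or myeloid markers 552 in the innate-like gate. Leaving out cells with other Treg genes, an alternative chosen after seeing the data, gave 1485 genes in the Foxp3-negative gate.

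Without doublet removal the Cd8 gate had 2 members past 2-fold, with Tnfrsf4 at 1.10, and the members whose detected shares were apart went from 0 to 1 in the Foxp3-positive gate, from 3 to 6 in the Cd8 gate and from 1 to 2 in the innate-like gate. Another random draw gave 5 in the Cd8 gate and 0 in the innate-like gate, and thinning to 2500 UMIs gave 0 in the innate-like gate. Tnfrsf21 in the Foxp3-negative gate reversed to -1.36 without cells that held B cell or myeloid markers. The 63 WT cells of the Foxp3-positive gate limit its precision.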

Other observations

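Cells with a Cd3 transcript that fell in none of the gates at full depth, 1685 in WT and 1436 in DKO-severe, were not part of the full-depth gate levels above. The gates and states redrawn on thinned counts could include some of these cells. In them Tnfrsf4 was at 63.7 CPM in WT against 377 CPM in DKO-severe, which gives a log2 ratio of 2.57 (2.44 to 2.69), and Tnfrsf9 at 22.5 and 136 CPM, a ratio of 2.59 (2.39 to 2.81). Tnfrsf18 was at 79.9 and 222 CPM (1.47), Tnfsf8 at 71.4 and 200.2 CPM (1.49), and Cd40lg at 87.1 and 49.1 CPM, a ratio of -0.83 (-0.98 to -0.68). Which T cells these are was not determined.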
